A study of Mus musculus with 2 samples.

Results

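Spi1, Spib and Spic encode the transcription factors PU.1, Spi-B and Spi-C, the 3 members of one branch of the ETS family, and were chosen by name from 21853 protein-coding genes of the GENCODE M21 annotation. Open chromatin around these 3 genes was read from ATAC-seq of hematopoietic stem cells, the bone marrow cells that renew themselves and feed every blood lineage. ATAC-seq lets the Tn5 transposase cut accessible DNA, and stretches with many cuts are called as peaks. The mice were male C57BL/6J adults, 5 to 6 weeks old, and the labels name no treatment and no altered gene. They formed 1 group of 2 libraries of 50000 cells each, called replicate 1 and replicate 2 after the labels. Both libraries carry the same donor identifier and separate biosample identifiers, and whether they came from separate animals was not resolved. The sorting markers of the cells were not described in the labels.

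Peaks were read from 2 lists per replicate: a thresholded list, which kept peaks that repeated well between subsamples of that library, and a less strict list, which kept more and weaker peaks. Each peak has a signal value from the authors' peak caller, given below with its percentile among all peaks of the same list. The thresholded lists held 25141 and 24495 peaks, and 19727 peaks of replicate 1 overlapped one of replicate 2. Read depth is unknown from such lists, so a missing peak means only that none was called. Against the cell type label, the promoters of 3 of 6 stem cell markers had a peak in both thresholded lists (Kit, Hlf and Meis1). All 6 had one in both less strict lists. Over all protein-coding genes these shares were 41.3% and 58.0%. Of 8 markers of mature blood cells, 1 had a promoter peak in both thresholded lists (Pax5). In both less strict lists 2 did, Pax5 and Nkg7, and Gata1, Alas2, Csf1r, Elane, Cd79a and Cd3e did not. With thresholded lists, at least 1 shared peak outside promoters, within 50 kb, was near 4 of the 6 and 3 of the 8. Over all genes this share was 43.9%.

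PU.1 binds a purine-rich sequence around the core GGAA and acts in stem cells, myeloid cells and B cells, where its dose helps to set lineage choice. In mouse and human its gene is known to be driven by a proximal promoter and by a far upstream regulatory element, the URE, at which Runx1 and PU.1 itself bind. Spi-B is known from B cells and plasmacytoid dendritic cells, and Spi-C from red pulp macrophages, which recycle iron from old red cells, where heme induces its gene.

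The sequences that the results below turn on are the stretches around the peak summits of the 3 genes and the promoter letters of Spic. They are printed 5′ to 3′ on the strand of the gene, from the GRCm38 assembly (mm10). Capitals mark the ETS core GGAA or its complement TTCC and the Runx spellings TGTGGT and TGCGGT with their complements. The Spi1 upstream element lies at chr2:91082895-91083194 on the plus strand and is shown because it sits where the URE is known.
Spi1 upstream element: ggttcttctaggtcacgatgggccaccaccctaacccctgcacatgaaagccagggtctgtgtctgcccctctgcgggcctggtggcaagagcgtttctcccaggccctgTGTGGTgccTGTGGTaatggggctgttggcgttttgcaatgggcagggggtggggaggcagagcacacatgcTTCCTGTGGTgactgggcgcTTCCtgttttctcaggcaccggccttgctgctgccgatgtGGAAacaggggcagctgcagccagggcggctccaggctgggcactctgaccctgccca
The Spi1 intron 2 element lies at chr2:91101455-91101654, plus strand, and is the peak of the gene body that is over 1000 bp from every start and in both less strict lists.
Spi1 intron 2 element: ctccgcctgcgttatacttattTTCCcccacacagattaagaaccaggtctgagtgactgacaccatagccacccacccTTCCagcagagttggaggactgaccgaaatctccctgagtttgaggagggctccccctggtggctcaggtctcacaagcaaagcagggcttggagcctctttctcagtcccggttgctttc
The Spi1 far downstream element lies at chr2:91136600-91136899, plus strand, and is the one with long PU.1 letters.
Spi1 far downstream element: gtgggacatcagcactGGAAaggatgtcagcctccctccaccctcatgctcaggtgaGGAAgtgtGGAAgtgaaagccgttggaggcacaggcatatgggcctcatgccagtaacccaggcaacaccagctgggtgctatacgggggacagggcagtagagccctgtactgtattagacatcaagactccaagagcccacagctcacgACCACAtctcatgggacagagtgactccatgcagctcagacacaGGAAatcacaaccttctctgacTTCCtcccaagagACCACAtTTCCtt
The Spib element lies at chr7:44528033-44528332, minus strand, and is the only thresholded peak of both replicates within 10 kb of a Spib start.
Spib last coding exon element: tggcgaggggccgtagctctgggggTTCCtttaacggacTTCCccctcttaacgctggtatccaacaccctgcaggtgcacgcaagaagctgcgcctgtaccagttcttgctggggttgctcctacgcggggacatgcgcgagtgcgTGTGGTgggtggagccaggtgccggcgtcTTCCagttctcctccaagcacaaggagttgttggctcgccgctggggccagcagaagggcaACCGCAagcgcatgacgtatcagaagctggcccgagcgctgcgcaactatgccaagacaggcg
The Spic promoter letters lie at chr10:88683024-88683273, minus strand, end 1 base before the start in RefSeq (GRCm38.p6), and are shown because a weak peak covers them.
Spic promoter: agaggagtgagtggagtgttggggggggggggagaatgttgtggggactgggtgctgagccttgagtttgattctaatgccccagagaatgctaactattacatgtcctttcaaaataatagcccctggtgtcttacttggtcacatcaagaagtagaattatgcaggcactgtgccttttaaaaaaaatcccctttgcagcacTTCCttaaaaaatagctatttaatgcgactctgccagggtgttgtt
The Spic downstream element lies at chr10:88669816-88670015, minus strand, beyond the end of the gene.
Spic downstream element: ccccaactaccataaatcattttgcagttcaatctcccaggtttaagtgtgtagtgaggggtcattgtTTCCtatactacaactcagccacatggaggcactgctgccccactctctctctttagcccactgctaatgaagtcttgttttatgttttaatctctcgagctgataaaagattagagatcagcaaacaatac
The promoter table matched Spib and Spic. Spi1 had no entry in it.

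Spi1 was the only one of the 3 genes whose promoters carried a peak in both thresholded lists, a call made for 41.3% of all protein-coding genes. The promoter here is 1000 bp either side of any annotated start of a protein-coding transcript. Spi1 (ENSMUSG00000002111, chr2:91082390-91115756, plus strand) has 3 such starts. The most 5′ one, at 91082390, belongs to the transcript Spi1-204, and the start of the principal transcript Spi1-201 lies 13.71 kb further downstream, at 91096096. Separate peaks stood at the far and at the principal start, and each was in all 4 lists. Among the 50% strongest peaks of each thresholded list Spi1 lost its call and none of the 3 genes had one, while 25.6% of all genes did.

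The upstream element, a peak at chr2:91082858-91083258, had signal values of 7.81 in replicate 1 and 7.70 in replicate 2. Its percentiles among all thresholded peaks were 37.2 and 18.7, so it was below the middle of both lists. In a bulk library a weak opening in all cells and a strong one in few cells cannot be told apart. Its summit lay 0.655 kb downstream of the most 5′ start, inside the first intron of Spi1-204, and 13.05 kb upstream of the principal start. From the RefSeq starts at 91096678 and 91096700, from which the URE distance is usually counted, the summit lay 13.63 and 13.65 kb upstream. The summits of the replicates were 10 bp apart. By the rule used here this peak is a promoter peak of Spi1 only through the annotated far start. With principal starts alone it is a distal peak, and Spi1 keeps its call through the other peak, a call then made for 39.5% of genes.

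The peak at the principal start, chr2:91096450-91097306, had signal values of 7.49 and 8.91, at percentiles 31.3 and 39.0. Its summit lay in the untranslated part of exon 1 of Spi1-201, 0.605 kb downstream of the principal start and 1 bp from the RefSeq start at 91096700. The replicates' summits were 14 bp apart, and 59.3% of all shared peaks had summits at most that far apart. The 2 replicates disagreed on which Spi1 peak was stronger: the upstream element in replicate 1 and the principal start in replicate 2. Ranked among thresholded promoter peaks only, the upstream element stood at percentiles 28.4 and 17.2 and the principal start at 24.6 and 32.5. Shared promoter peaks over 10 kb apart, as at Spi1, were found in 2.16% of the 9000 genes with a shared promoter peak. These include genes whose starts lie too close together for such a pair, so the share also depends on the annotation.

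**Figure D1:**
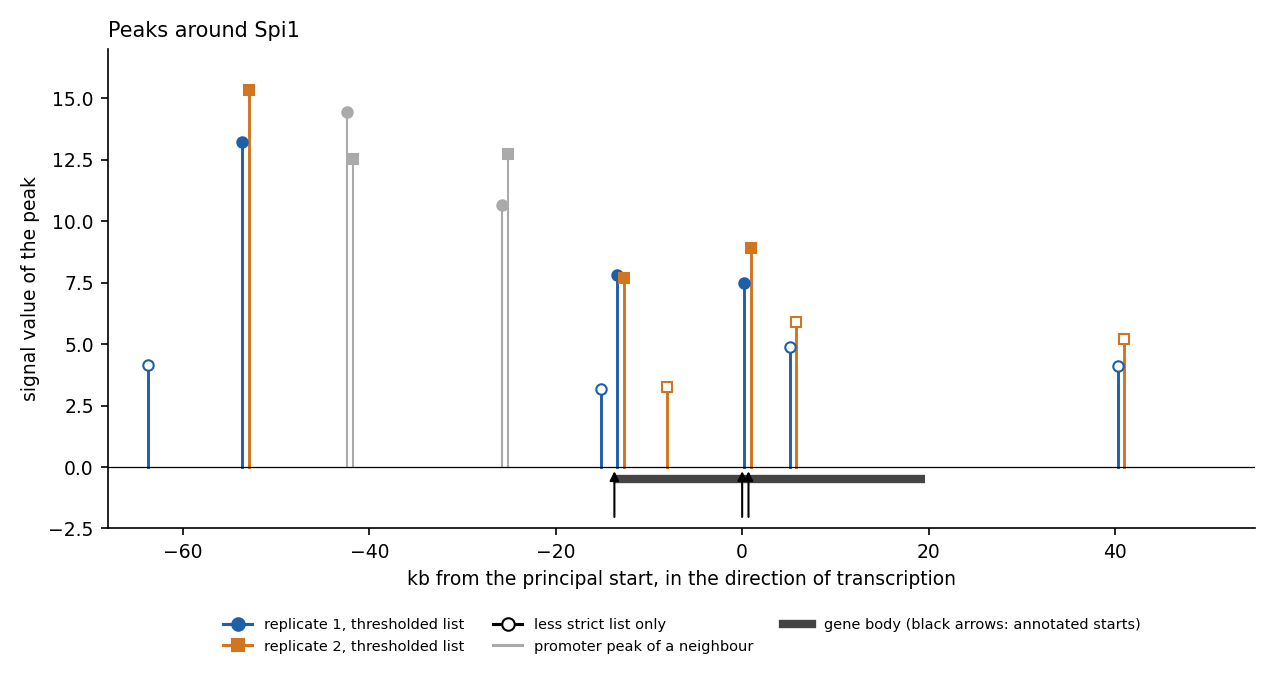
Peaks around Spi1, by distance in kb from the principal start (horizontal axis) and signal value (vertical axis). Each stem is 1 peak in 1 replicate, replicate 2 drawn slightly to the right; filled symbols are thresholded peaks, open symbols are in the less strict list only, and grey stems are promoter peaks of neighbours. Peaks stand at the principal start and 13.05 kb upstream of it in both replicates. Among the lists per replicate, the intron 2 and far downstream peaks are in the less strict ones only.

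Other peaks near Spi1 were weaker or belonged elsewhere. Within the gene a peak in intron 2, chr2:91101445-91101700 and 5.459 kb downstream of the principal start, was in both less strict lists, with signal values of 4.90 and 5.88. It was also in the thresholded list made from both libraries together, at 5.85. A far downstream peak, chr2:91136621-91137143 and 40.65 kb from the principal start, beyond the neighbour Mybpc3, had 4.11 and 5.20 in the less strict lists. It was not in that joint thresholded list of 36033 peaks, but in the conservative one made from both libraries, at 4.96. Despite its name the conservative list was the longer one, with 43478 peaks. The other peaks were each in the less strict list of a single replicate: 3.16 at 14.82 kb upstream and 4.16 at 63.35 kb upstream of the principal start in replicate 1, and 3.26 at 8.45 kb upstream in replicate 2.

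The strongest distal peak assigned to Spi1 lay in another gene. A distal peak here has its summit over 1000 bp from every protein-coding start and within 50 kb of a start of the gene. At chr2:91042402-91043194, 39.54 kb upstream of the most 5′ start and 53.25 kb upstream of the principal one, signal values were 13.2 and 15.3, at percentiles 92.2 and 95.8. The summit lies in the first exon of Rapsn-204, a transcript of Rapsn, which encodes a muscle synapse protein. It was the only thresholded distal peak of both replicates for Spi1, and 43.9% of all genes had at least 1. With less strict lists Spi1 had 3 shared distal peaks, a number reached by 39.4% of genes. Counting from principal starts removed the Rapsn peak, which is over 50 kb away, and added the upstream element.

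Spib had no promoter peak in any list. Its 3 protein-coding starts lie within 0.795 kb of each other (ENSMUSG00000008193, chr7:44525993-44532071, minus strand). No peak came within 1000 bp of them in either thresholded list, in either less strict list, or in the series-level lists made from both libraries. These include an archived list of 208607 peaks, whose inputs were not resolved. A promoter peak in both less strict lists was found for 58.0% of genes. The nearest called peak of the per-replicate lists, in none of the thresholded ones, was 2.288 kb upstream in the neighbour Pold1 (chr7:44534090-44534639), with signal values of 4.51 and 3.95.

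The open chromatin of Spib was at the other end of the gene. A peak at chr7:44527589-44528430 had signal values of 7.74 and 8.62, at percentiles 36.3 and 33.5. The summit lay in exon 6 of Spib-201, the last coding exon, 3.888 kb downstream of the start. The replicates placed the summit 1 bp apart. This was the 1 thresholded distal peak that both replicates shared for Spib. In the less strict lists 5 replicate 1 peaks near Spib overlapped a replicate 2 peak, a count reached by 16.4% of genes. They lay in 4 separate places, since a weaker replicate 1 peak (chr7:44527627-44527781, 3.78) stood beside the exon peak and both overlapped 1 wide peak of replicate 2. A peak in an intron of Mybpc2, 10.14 kb downstream, had 4.87 and 5.74 in the less strict lists. One at 46.78 kb downstream had 6.83 in the thresholded list of replicate 1 and 6.40 in the less strict list of replicate 2. Among the lists per replicate, one at 29.14 kb upstream (6.68) and one at 30.15 kb downstream (4.26) were in those of replicate 1 alone. In the thresholded list made from both libraries together, the peak at 29.14 kb upstream had 7.89 and the Mybpc2 intron peak 6.5. The peaks at 46.78 and 30.15 kb downstream were not in that list, but in the longer conservative one, at 7.44 and 5.18.

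Neither replicate's thresholded list held a promoter peak for Spic, and both less strict lists did. The gene (ENSMUSG00000004359, chr10:88674772-88685015, minus strand) has 2 protein-coding starts, and the principal one, at 88683023, lies 1.992 kb downstream of the other. The peak at chr10:88682947-88683345 had signal values of 4.54 and 3.49, at percentiles 28.4 and 4.25 of the less strict lists. Its summit lay 0.072 kb upstream of the principal start. The start further upstream had no peak in any list. In replicate 2 it was among the weakest peaks of the list.

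Spic had 2 thresholded distal peaks in both replicates, a count reached by 17.7% of genes, and both lie downstream of the gene in intergenic DNA. The stronger, at chr10:88645244-88646117, had 10.5 and 12.3, at percentiles 73.5 and 80.4, and lay 39.32 kb from the most 5′ start and 37.33 kb from the principal one. The nearer, at chr10:88669807-88670085, had 7.56 and 7.06, at percentiles 32.4 and 10.8, and lay 15.1 kb from the most 5′ start. Upstream, a peak at chr10:88712395-88712932 had 6.53 in the thresholded list of replicate 1 and 7.64 in the less strict list of replicate 2, 27.52 kb from the most 5′ start. A pair of weaker peaks lay close by: 5.35 and 6.31 at 23.14 kb upstream, and 3.98 and 6.64 at 23.86 kb upstream, both in less strict lists. In the thresholded list made from both libraries together, the peak at 23.14 kb upstream had 6.47. Those at 23.86 and 27.52 kb upstream were absent from it. Spic therefore had 5 shared distal peaks in the less strict lists, in 5 separate places.

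**Figure D2:**
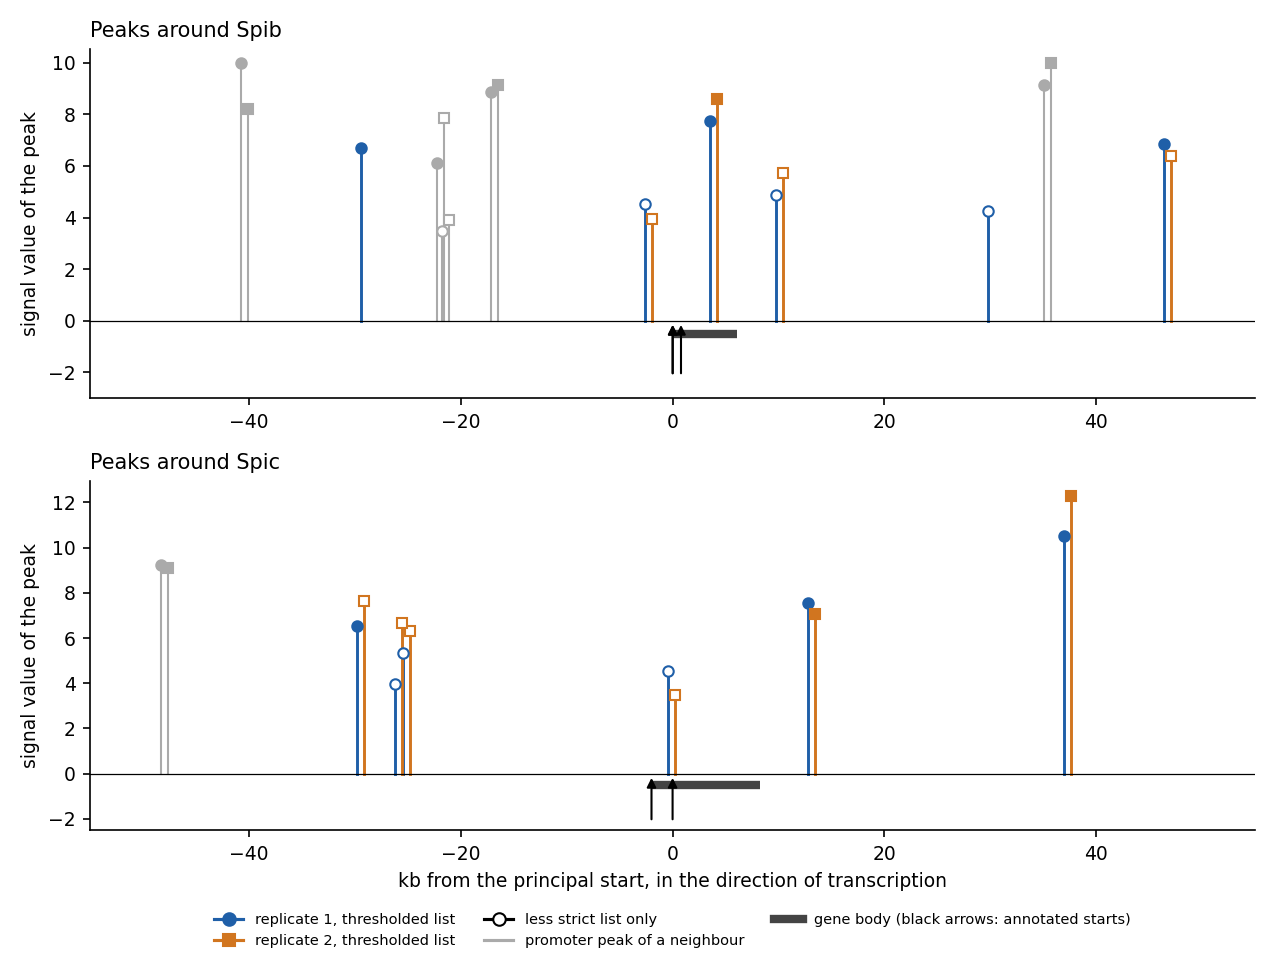
Peaks around Spib (top) and Spic (bottom), by distance in kb from the principal start (horizontal axis) and signal value (vertical axis), with stems, fills and grey neighbours as in the plot of Spi1. No stem stands at the Spib starts, the Spib peak of both replicates lies 3.888 kb into the gene, and the Spic start carries open symbols only.

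**Figure D3:**
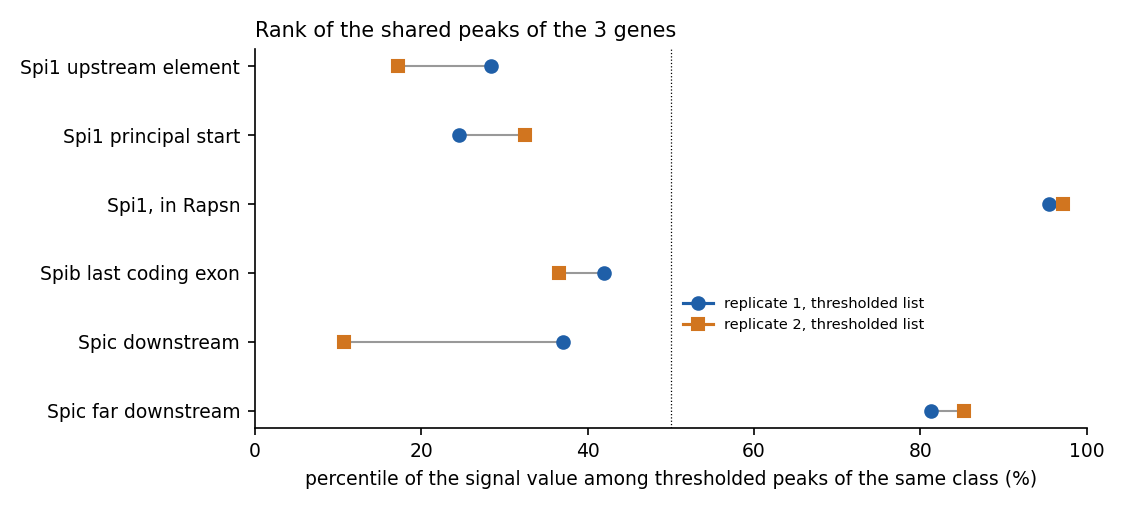
Percentile of each shared thresholded peak of the 3 genes (horizontal axis, percent) among thresholded peaks of its class, promoter or distal, with circles for replicate 1, squares for replicate 2 and the dotted line at the middle of each list. The Rapsn peak near Spi1 and the far downstream Spic peak rank above the middle in both replicates, and the other 4 peaks rank below it in both.

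The order of the 3 genes at their own starts was therefore Spi1, Spic and Spib. The principal start of Spi1 had 7.49 and 8.91, that of Spic 4.54 and 3.49 in less strict lists, and that of Spib no called peak. The Spic peak missed both thresholded lists, which hold stronger peaks, so its lower values follow in part from that and nothing more is read from them. With 2 libraries no test was made. Signal values compare peaks within a list and are not levels of RNA.

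Motif letters were searched on both strands in 300-base windows around the summits of 20 peaks: the promoter peaks of the 3 genes and every distal peak assigned to them in any of the 4 lists, with overlapping peaks merged and read at 1 summit. The background was the same search in all 19727 shared peaks. Most of the 20 windows are distal, so shares of the shared distal peaks alone are given as well for most letters. The ETS core GGAA stood in all 20 windows and in 97.5% of shared peaks, so nothing is read from its presence. The longer PU.1 letters GAGGAAGT, which contain the core, were in 1 of 20 windows against 9.12% of shared peaks, and AGGAAGTG, which overlaps them, in 2 of 20 against 10.2%. The far downstream Spi1 element held GAGGAAGT at 2 places, 91 bp before and 126 bp after its summit. The Spic promoter peak held AGGAAGTG on the strand opposite to the gene, 26 bp after the summit and 49 bases before the RefSeq start, where the capitals TTCC stand in the printed sequence. In RefSeq promoters of protein-coding genes, 4.13% held AGGAAGTG.

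The Runx letters TGTGGT were in 6 of 20 windows, in 27.5% of shared peaks and in 38.5% of shared distal peaks. Runx1 is a core factor of blood stem cells. The Spi1 upstream element held them at 3 places, 37 and 28 bp before and 39 bp after the summit, all on the plus strand. At least 3 matches were found in 1.09% of shared peaks (216) and in 1.79% of shared distal ones. At the third match the letters follow directly on an ETS core read on the other strand, as the longest run of capitals in the printed sequence shows. That arrangement was found in 0.436% of shared peaks (86) and in 0.67% of shared distal ones. Neither it nor the count of at least 3 matches was in the planned motif list, and both describe what this element holds. Their low shares are therefore no test of the element. A C/EBP match, TTGCNNAA, lay 5 bp before the same summit. Such a match was in 5 of 20 windows, against 11.2% of shared peaks and 13.7% of shared distal ones. C/EBP factors are partners of PU.1 at myeloid genes. The E box CAGCTG lay 106 bp after the summit and the Sp1 letters GGGCGG 118 bp after it. They were found in 20.1% and 37.0% of shared peaks, and in 23.8% and 13.9% of shared distal ones.

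At the principal start of Spi1 the window held 4 ETS cores, 1 C/EBP match 12 bp before the summit, 1 Myb match AACGG 7 bp before it and 1 Sp1 match 3 bp after it. It held neither of the Runx spellings TGTGGT and TGCGGT. The 300-base window of the intron 2 element held the GATA letters AGATAA at 2 places, 113 and 101 bp before the summit. The first place lies outside the peak, and neither stands whole in the shorter printed sequence. Such letters were in 9.71% of shared peaks and 13.7% of shared distal ones. The same window held the only Ctcf match, CCANNAGGG, of the 20 windows, against 8.70% of shared peaks and 9.81% of shared distal ones. Ctcf is the main insulator protein. The Spib exon window held TGTGGT at its summit and TGCGGT 90 bp after it. The latter was in 9.44% of shared peaks and 7.94% of shared distal ones. The Spic downstream window held TGATAA, another GATA spelling, at 2 places, and the far downstream one held an ETS core at its summit. The letters CCGGAAGT, CTTTGAT (Tcf/Lef) and ATGCAAAT (octamer) were in none of the 20 windows, against 4.56%, 2.73% and 1.53% of shared peaks. Among shared distal peaks the shares were 1.07%, 3.27% and 1.63%. A match is a string of letters and not evidence of binding.

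Base composition varied between peaks, and the ranges of the 3 genes overlapped or met. Over all 300-base windows GC content was 50.7% to 63.3% for Spi1, 47.7% to 62.7% for Spib and 38.7% to 50.7% for Spic. It was 63.3% in the Spi1 upstream element and 62.7% both at its principal start and in the Spib exon element. The median was 54.7% over shared peaks and 62.3% over shared promoter peaks, the class of both these Spi1 peaks. GC content was 42.3% at the Spic promoter peak and 40.0% in the Spic downstream element, at percentiles 5.51 and 2.38 of shared peaks. The observed to expected CpG ratio at the principal Spi1 start was 0.204, against a median of 0.779 over shared promoter peaks.

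**Figure D4:**
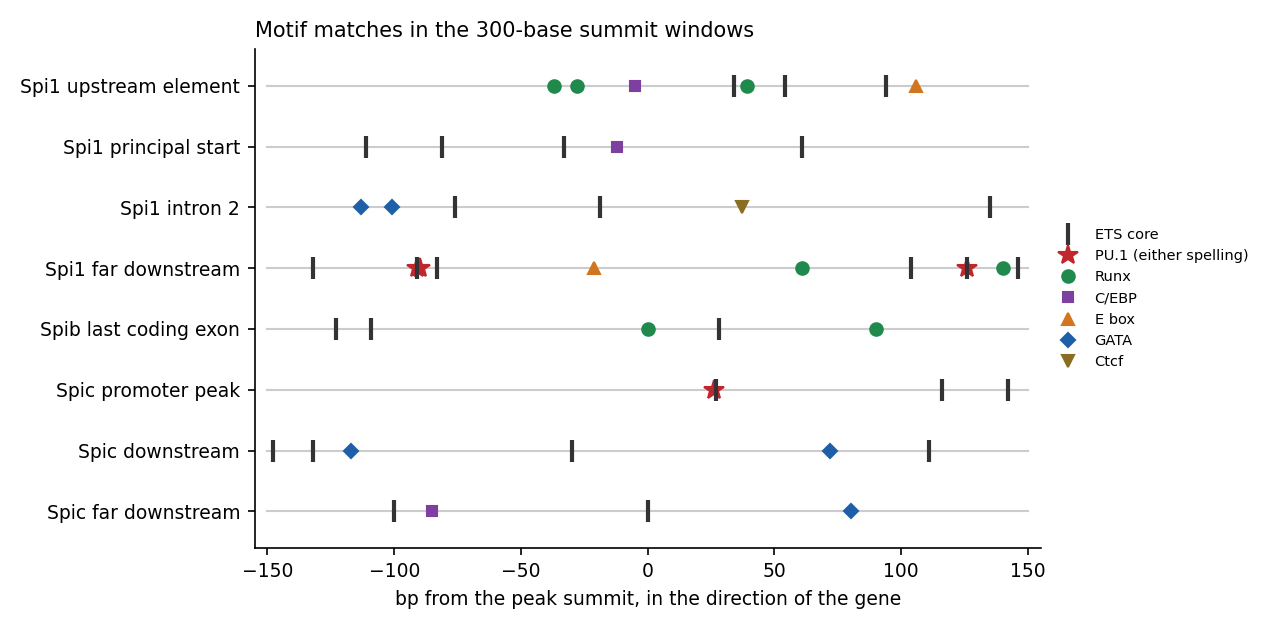
Motif matches in the 300-base windows of 8 peaks of the 3 genes, by distance in bp from the peak summit in the direction of the gene (horizontal axis), 1 row per peak and 1 symbol per motif family. The Spi1 upstream element has 3 Runx matches, the far downstream element has PU.1 matches at 2 places, and the Spic promoter peak has 1 PU.1 match.

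Each of the 3 genes has a gene of the myosin-binding protein C family as its neighbour downstream. Mybpc3 begins 2.39 kb beyond Spi1, Mybpc2 lies 1.34 kb beyond Spib and Mybpc1 lies 69.6 kb beyond Spic. None of the 3 muscle genes had a promoter peak in any of the 4 lists. Most other neighbours had promoter peaks in both thresholded lists. Over all protein-coding genes 41.3% had one in both thresholded lists and 58.0% in both less strict lists. With so few neighbours nothing is read from this difference. Psmc3, which encodes a proteasome ATPase, had 14.5 and 12.5, and the zinc transporter gene Slc39a13 had 10.7 and 12.8, against 7.49 and 8.91 at the principal Spi1 start. Around Spib, Pold1, the catalytic subunit of DNA polymerase delta, had 8.89 and 9.14, the aspartic peptidase gene Napsa 9.99 and 8.22, and Emc10 and Fam71e1 shared a peak at percentiles 58.1 and 55.1. Nr1h2, the oxysterol receptor LXR beta, had 6.13 in the thresholded list of replicate 1 and 7.85 in the less strict list of replicate 2. Upstream of Spic, the Golgi GTPase gene Arl1 had 9.24 and 9.11. Rapsn had no promoter peak.

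The wider network was read from 6 gene lists, in which some genes, such as Cbfb and Mef2c, stand more than once. Among factors known to act at Spi1 control elements, 17 of 34 had a promoter peak in both thresholded lists against 41.3% of all genes, and 28 of 34 in both less strict lists against 58.0%. At least 1 thresholded distal peak was near 28 of 34, against 43.9% of all genes. The highest ranked were Runx3 (12.9 and 15.2), Mef2c (12.3 and 13.9), the Runx partner Cbfb (12.3 and 12.9), the E protein Tcf3 (10.9 and 12.7) and Hoxa10 (9.83 and 9.93). Gata1, Gata2, Fli1, Cebpb and Tcf7 had no thresholded promoter peak in either replicate. Of these, Fli1 had 9 shared distal peaks, Gata2 and Cebpb 4 each, Tcf7 1 and Gata1 none, so loci without a promoter peak could hold several distal ones.

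Partner proteins of the 3 factors had 20 of 32 promoters with peaks in both thresholded lists and 24 of 32 in the less strict ones, with distal peaks at 18, against 41.3%, 58.0% and 43.9% of all genes. Among the highest were the remodeler subunit Smarcc1 (13.5 and 13.01), the Polycomb methyltransferase Ezh2 (13.3 and 13.06), Cbfb and the deacetylase Hdac1 (13.04 and 11.9). Cebpb, Gata1, Gata2, Ikzf3 and Dnmt3b had none in either thresholded list.

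Myeloid genes known as PU.1 targets stood near the background in the thresholded lists, with 19 of 45 promoters against 41.3% of all genes, and had 34 of 45 in the less strict ones against 58.0%. Distal peaks were near 34 of 45, against 43.9% of all genes. The integrin Itgal (13.09 and 13.8) and Tlr4, the lipopolysaccharide receptor (12.9 and 12.95), ranked first, then the kinase Syk (9.54 and 8.88) and the Fc receptor Fcgr2b (7.01 and 11.5). Csf1r, the receptor of macrophages for their growth factor, had no promoter peak in any of the 4 lists and 2 shared distal peaks. Csf3r, Itgam, Cd14 and Fcer1g had promoter peaks in the less strict lists alone, such as 4.78 and 4.71 for the neutrophil receptor gene Csf3r and 5.15 and 6.04 for Itgam.

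B and dendritic cell targets of PU.1 or Spi-B had 12 of 34 promoters in both thresholded lists, 22 of 34 in the less strict ones, and distal peaks near 21. Their share of 35.3% in the thresholded lists was below the 41.3% of all genes, 64.7% in the less strict lists stood beside 58.0%, and 43.9% of all genes had a distal peak. Mef2c, the adaptor Grap2 (10.3 and 13.4), Tcf4 (10.99 and 9.25), the interleukin receptor Il7r (8.32 and 11.2) and the phosphatase Ptprc (9.39 and 9.91) ranked highest. The B cell receptor genes Cd79a and Cd79b and the kinase Btk had no promoter peak in any of the 4 lists, and Blnk had 4.73 and 5.18 in less strict lists.

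Red pulp macrophage and iron recycling genes had 13 of 26 promoters in the thresholded and 14 of 26 in the less strict lists, and distal peaks near 14. All genes stood at 41.3%, 58.0% and 43.9%, so the less strict share of 53.8% was below the background. The heme and bile pigment enzymes Hmox1 (10.7 and 11.5), Blvra (15.7 and 16.9) and Blvrb (9.31 and 11.3) were among the highest, with Spp1 (14.5 and 16.2) and Kcnj10 (8.78 and 12.4). The macrophage genes Cd163, Cd5l and Treml4 had no promoter peak in any of the 4 lists, and Vcam1 and Slc11a1 had 3.98 and 3.23 in the less strict list of replicate 2 only.

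The ETS family outside the 3 genes had 11 of 23 promoters with peaks in both thresholded lists, 18 of 23 in the less strict ones, and distal peaks near 15, against 41.3%, 58.0% and 43.9% of all genes. The thresholded share of 47.8% was near the background. Elk1 (14.7 and 13.6), Elf2 (13.8 and 12.3), Etv5 (12.2 and 12.2), Etv4 (9.85 and 13.2) and Ets2 (10.1 and 11.8) ranked highest. All 5 had stronger promoter peaks in both replicates than Spi1, which had 7.81 and 8.91 at its strongest. They were picked for their high percentiles, so this follows largely from the choice. Some other open ETS genes were not stronger than Spi1 in both replicates.

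**Figure D5:**
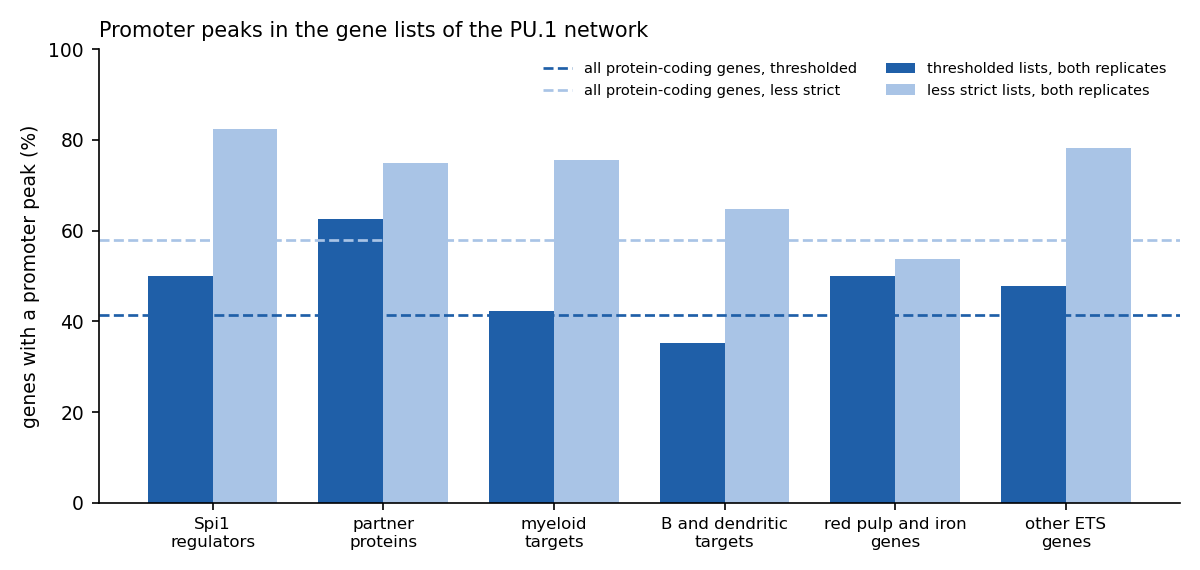
Share of genes with a promoter peak in both replicates (vertical axis, percent) for the 6 gene lists, dark bars for thresholded and light bars for less strict lists, with dashed lines for all protein-coding genes (41.3% and 58.0%). The myeloid target bar lies near the dashed line in the thresholded lists. The red pulp and iron bar lies above the line in the thresholded lists and slightly below it in the less strict ones.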

How the data were processed

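Each deposited peak carries a signal value that the authors' peak caller assigned. Each deposited line also gives −log10 p and q values, which were not used. No aligner, peak caller, version or signal scale is given in the sources used here. Lists per replicate come from 1 library each and series-level lists from both, per the deposited file notes. The assembly is mm10, and no peak end lay beyond the reference chromosomes. Every thresholded peak of replicate 1 had a deposited −log10 irreproducible discovery rate of at least 1.30 in the ranked list. Intervals listed once per summit were counted once, at the strongest summit. An overlap of 1 bp made a peak shared.

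Genes came from GENCODE M21 and promoter letters from RefSeq. Percentiles are the share of weaker peaks in a list. Calls and assignments were tested on simulated peaks, and scripts ran in Python with pandas and pysam. Named genes were every member peak, all neighbours, and from each list the 5 open genes with the highest mean percentile and the first 5 without a thresholded promoter peak. Results for some of them are not reported here. The 3 genes and all lists were chosen with earlier results of these data known. The design has 1 group, so no test was made. Alternatives covered windows, starts, lists, strength and single replicates. Clec7a had no entry in the gene table.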

Additional observations from a re-analysis of the deposited data

How the results depend on the processing

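Of 74 alternative values, 48 were labelled as kept and 26 as moved. Counts near the main one were labelled as kept, such as 25 open Spi1 regulators in the series-level thresholded list against 17. The label for single starts was set in advance. The Spi1 signal of 1 replicate always lies within the spread around the mean of both, so these labels are no check. Spi1 alone of the 3 genes was called with promoter windows of 500 and 2000 bp, principal starts, summits, each replicate alone and the thresholded series-level lists. The less strict lists and the pseudoreplicated and replicated series-level lists called 2 genes, Spi1 and Spic, and the 50% strongest peaks called 0. The 4 shared distal peaks of the 3 genes together became 2 within 20 kb, 2 among the 50% strongest peaks and 13 in the less strict lists. They became 9, 13, 18 and 17 in the IDR-thresholded, conservative, pseudoreplicated and replicated series-level lists. Single replicates gave 4 to 7, since replicate 1 alone assigned 3 each to Spib and Spic. Measured to the principal start, the same strongest distal peaks lay at -53.25 instead of -39.54 kb for Spi1 and at 37.33 instead of 39.32 kb for Spic. Less strict lists raised the open Spi1 regulators to 28, myeloid targets to 34, B and dendritic targets to 22 and ETS genes to 18, and the series-level thresholded list raised B and dendritic targets to 19. With the 50% strongest peaks, where 25.6% of all genes stayed open, the 6 lists fell to 6, 7, 2, 3, 7 and 7 genes. Windows of 100 bases cut the 159 motif matches to 54, as shorter windows hold fewer letters. In the Spi1 upstream element all 3 Runx matches lay within that window, but 1 of 3 ETS cores. No paired analysis was possible because the series has 1 group. Depth is unknown, and 2 libraries limit every statement on spread.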

Other observations

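Starts other than a principal one decided few calls. Of the 9030 genes with a promoter peak in both thresholded lists, 392 had none at a principal start, and Spi1 was not among them.

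The genes most like Spi1 were taken as those with the same calls in all 4 lists, the same number of distal peaks and the smallest mean difference in promoter percentile over the 2 replicates. Among 2786 candidates they were Icosl (0.0892 percentage points), Gprc5a (1.11), Stxbp3 (1.47), Mtfmt (1.65) and Lrrc8a (1.68). For Spic, with 279 candidates in the less strict lists, they were Tcea2 (1.98), Fcer1g (2.81), Rab6b (3.37), Hcst (3.50) and Map3k1 (3.58). Spib has no promoter percentile, and 1506 genes share its calls and its number of distal peaks. The strongest Spi1 peak used here is the upstream element in replicate 1 and the principal start in replicate 2.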
